A study of Arabidopsis thaliana with 4 samples.

Results

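Superoxide dismutases and catalases are the enzymes that clear superoxide and hydrogen peroxide in plant cells, and the transcripts of 10 of them were compared between Arabidopsis thaliana rosettes of a line labelled 35S:∆13RAP2.12 and rosettes of the wild type. The genes were taken by locus as a family, with no value of theirs in the rule: the copper/zinc dismutases CSD1 (AT1G08830), CSD2 (AT2G28190) and CSD3 (AT5G18100), the iron dismutases FSD1 (AT4G25100), FSD2 (AT5G51100) and FSD3 (AT5G23310), the manganese dismutase MSD1 (AT3G10920) and the catalases CAT1 (AT1G20630), CAT2 (AT4G35090) and CAT3 (AT1G20620). All 10 were found among the 27826 probe sets of the table, with 1 probe set each. The study used 2 arrays labelled 35S:∆13RAP2.12 and 2 of the accession Columbia-0 (Col-0), which is also the background of the transgenic line. Both groups were whole rosettes of soil-grown plants, 4 weeks old, from a 12 h day at 22 °C with nights at 18 °C, harvested 10 h after lights came on and after 2 days of cold treatment of the seeds at 4 °C. RAP2.12 is a transcription factor of the group that plants use to sense low oxygen, and the name of the line stands for a shortened, oxygen-stable form of it driven by 35S, a viral promoter active in most tissues. The labels do not say whether the arrays came from 1 transgenic line or several, or from single or pooled plants. Standard deviations (SD) therefore describe the spread between these arrays, which may be technical. Standard errors (SE), intervals and p-values of the fit below also draw on a prior variance shared over all probe sets. For FSD2 the SD was 0.00039 on the 35S:∆13RAP2.12-labelled arrays and 0.0069 on the Col-0 arrays, while the SE was 0.1095. The smallest SE of all probe sets was 0.1095, and the median SE of the 10 transcripts was 0.1125.

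Superoxide dismutases turn superoxide into hydrogen peroxide and oxygen. They are grouped by the metal they use and work in several compartments. Catalases in the peroxisome break hydrogen peroxide down to water and oxygen. In Arabidopsis leaves the choice between copper/zinc and iron dismutases follows the copper supply. When copper is scarce, the factor SPL7 raises FSD1 and the microRNA miR398, which cleaves the transcripts of CSD1, CSD2 and their copper chaperone CCS1, whereas CSD3 is not among its known targets. Catalase activity in leaves is needed above all for the hydrogen peroxide that photorespiration makes.

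Values are log2 expression levels after robust multi-array averaging (RMA), in which a difference of 1 is 2-fold. Median levels were 7.91 and 7.89 on the 35S:∆13RAP2.12-labelled arrays and 7.88 and 7.88 on the Col-0 arrays, and Pearson's r over probe sets was 0.993 within each group, against 0.978 to 0.980 between groups. RAP2.12 itself measured 11.28 and 11.06 on the 35S:∆13RAP2.12-labelled arrays and 11.07 and 11.16 on the Col-0 arrays, a log2 difference of 0.06 (95% interval -0.30 to 0.41, limma adjusted p = 0.879). This level does not bear out the label, although the labels do not say whether the probes lie in the part that the transgene carries. Directions below are therefore those of arrays carrying that label. Of 5 rosette leaf markers, 4 had levels above the lower quartile of all probe sets (4.82), and the exception was the chlorophyll-binding protein gene LHCB1.1. All 5 had negative log2 differences, with a median of -0.10, and 0 were called. Their summed linear levels were 15190 and 14928 on the 35S:∆13RAP2.12-labelled arrays and 15905 and 15872 on the Col-0 arrays. Of 6 markers of roots, seeds, pollen and flowers, 4 lay below that quartile. The other two were the root β-glucosidase PYK10, at 11.05 and 11.17 on the 35S:∆13RAP2.12-labelled arrays and 10.51 and 10.28 on the Col-0 arrays, and the floral regulator AG, at 5.22 and 5.45 on the 35S:∆13RAP2.12-labelled arrays and 6.27 and 6.60 on the Col-0 arrays. Neither passed the test (adjusted p = 0.102 and 0.0690). The summed linear levels of the 6 markers were 2233 and 2441 on the 35S:∆13RAP2.12-labelled arrays and 1601 and 1428 on the Col-0 arrays. PYK10, by far the brightest, made up most of each sum. Of the 6 markers, 3 had positive and 3 had negative log2 differences. The part of these markers in the results below was not tested. In whole rosettes, a change in the share of a cell type and a change in RNA per cell cannot be told apart.

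None of the 10 transcripts passed the threshold of an adjusted p below 0.05 (limma, Benjamini-Hochberg over all probe sets), which 2.17% of all probe sets did. At an unadjusted p below 0.05 there were 3 with higher levels in the 35S:∆13RAP2.12-labelled arrays, CSD1, CSD2 and CAT1, and 0 with lower ones, where all probe sets gave 7.85% higher and 8.38% lower. The median log2 difference was 0.0047 over the 10 transcripts and -0.04 over all probe sets, with 5 of the 10 positive, against 42.4% of all probe sets. In 8 of the 10 the arrays of the groups did not overlap, 4 higher and 4 lower, against 19.5% higher and 29.1% lower among all probe sets. The 95% interval of the difference lay within 2-fold in either direction for 9 of the 10, the exception being CSD1, and for 82.6% of all probe sets. None of the 10 lay below the lower quartile of signal.

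**Figure D1:**
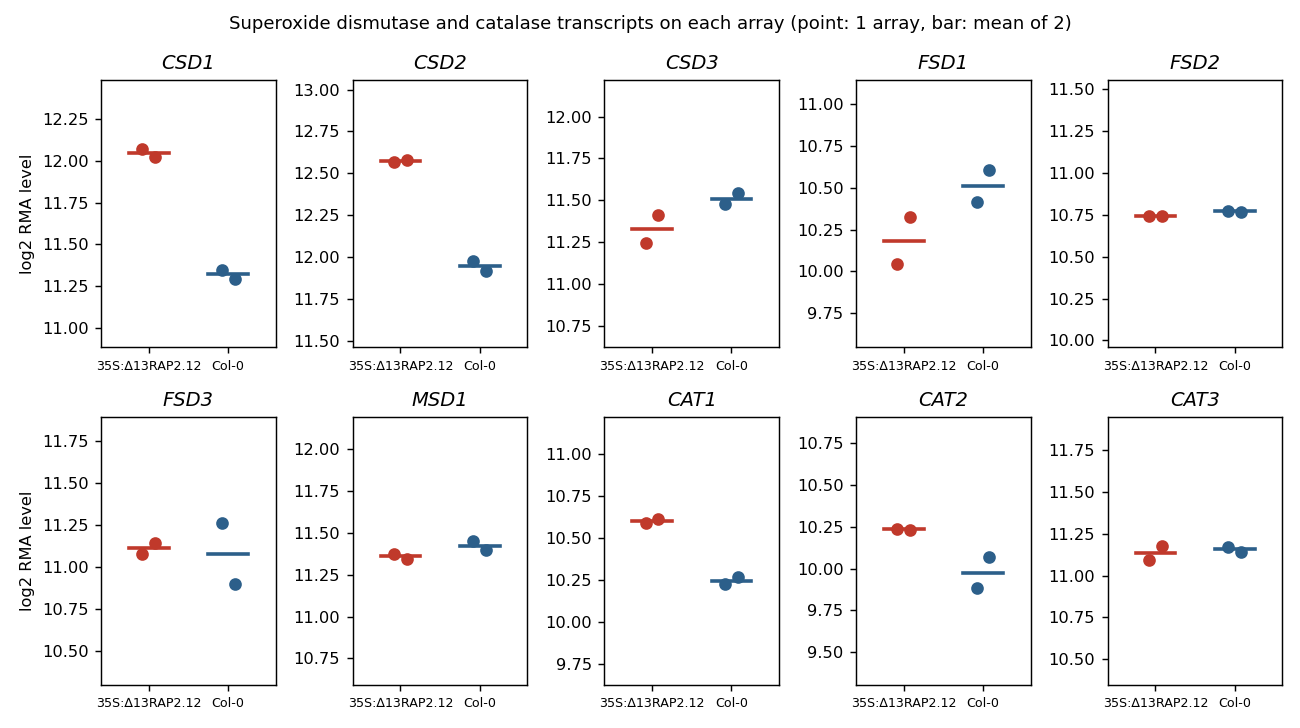
Log2 RMA level of each transcript (vertical axes, each spanning the same range around its own centre) on the 2 arrays labelled 35S:∆13RAP2.12 (red, left) and the 2 Col-0 arrays (blue, right), with 1 point per array and a bar at the group mean. CSD1, CSD2 and CAT1 show separated groups with points close together, and FSD3 shows the widest spread, between the Col-0 arrays.

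The pair with the largest differences was CSD1 and CSD2. CSD1, the dismutase of the cytosol, measured 12.07 and 12.02 on the 35S:∆13RAP2.12-labelled arrays, against 11.35 and 11.29 on the Col-0 arrays. The groups stood well apart, with means of 12.05 ± 0.03 on the 35S:∆13RAP2.12-labelled arrays and 11.32 ± 0.04 on the Col-0 arrays (SD, n = 2 each). The log2 difference was 0.72 (SE 0.11, 95% interval 0.43 to 1.02, adjusted p = 0.0668), which is 1.65-fold (interval 1.35 to 2.03) and ranked 777 by p among all probe sets.

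CSD2, the dismutase of the chloroplast stroma, measured 12.57 and 12.58 on the 35S:∆13RAP2.12-labelled arrays, against 11.98 and 11.91 on the Col-0 arrays. Again the groups stood apart by far more than the arrays within each. The means were 12.57 ± 0.0084 on the 35S:∆13RAP2.12-labelled arrays and 11.94 ± 0.04 on the Col-0 arrays (SD, n = 2 each). The log2 difference was 0.63 (SE 0.11, 95% interval 0.33 to 0.92, adjusted p = 0.0873), which is 1.55-fold.

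Whether CSD1 and CSD2 count as called differed between the settings of the fit and between thresholds. With the filter that left out probe sets below the 25th percentile of mean level, the adjusted p was 0.0349 for CSD1 and 0.0473 for CSD2, where 4.32% of the probe sets kept were called. When the prior variance was allowed to follow the level, they reached 0.000386 and 0.000462, and CAT1 also passed at 0.0438, where 6.32% of all probe sets were called. At an adjusted p below 0.10, which 4.32% of all probe sets met, both CSD1 and CSD2 passed. Over the 11 alternatives to the fit as described, the adjusted p ranged from 0.000386 to 0.253 for CSD1 and from 0.000462 to 0.289 for CSD2. The difference itself stayed between 0.70 and 0.76 for CSD1 and between 0.60 and 0.68 for CSD2. It moved only with another normalization or with 1 array left out. The replicate block, filter, trend, robust variances and array weights left it unchanged, so they say nothing on its stability.

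**Figure D2:**
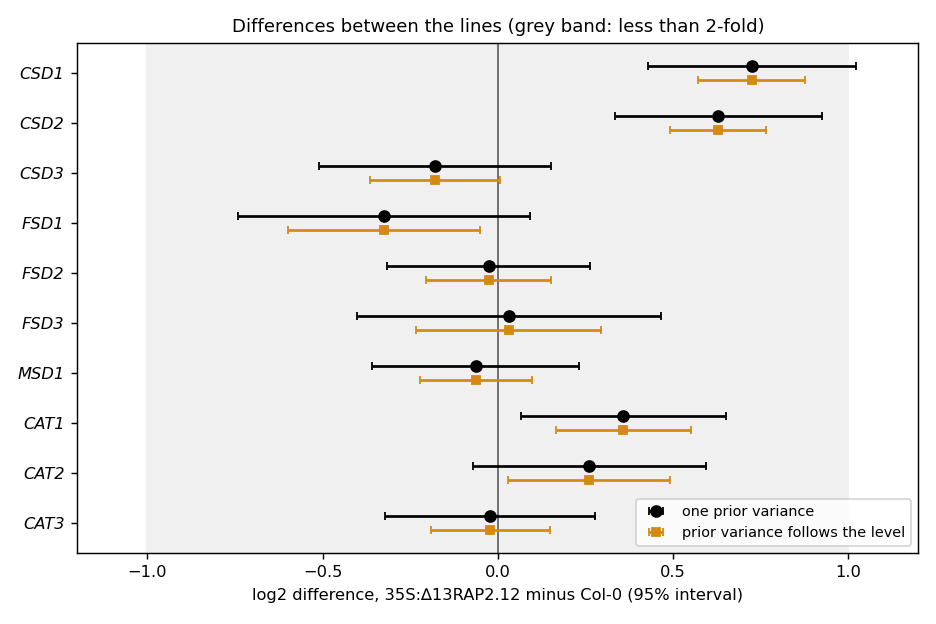
Log2 difference of each transcript, 35S:∆13RAP2.12 minus Col-0 (horizontal axis), with 95% intervals from limma with one prior variance (black circles) and with a prior variance that follows the level (orange squares); the grey band marks less than 2-fold. CSD1 at 0.72 and CSD2 at 0.63 lie farthest to the right and FSD1 at -0.32 farthest to the left.

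CSD3, the copper/zinc dismutase of the peroxisome, pointed the other way. Its levels were 11.25 and 11.41 on the 35S:∆13RAP2.12-labelled arrays and 11.48 and 11.54 on the Col-0 arrays, with both of the first pair just below the second. The lines differed by -0.18 in log2 (SE 0.12, 95% interval -0.51 to 0.15, adjusted p = 0.559).

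Among the iron dismutases, FSD1 had the most negative value of the 10 transcripts. FSD1, the copper-responsive iron enzyme, measured 10.04 and 10.32 on the 35S:∆13RAP2.12-labelled arrays, against 10.41 and 10.60 on the Col-0 arrays. The groups did not overlap, but the nearest arrays of each lay close together. This gave a log2 difference of -0.32 (SE 0.16, 95% interval -0.74 to 0.09, adjusted p = 0.414). It was -0.18 without 35S:∆13RAP2.12 replicate 1 and -0.47 without replicate 2 of the same label.

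FSD2 and FSD3 work as a pair at the chloroplast nucleoids, where they belong to the proteins associated with the plastid RNA polymerase. FSD2 measured 10.74 and 10.74 on the 35S:∆13RAP2.12-labelled arrays and 10.78 and 10.77 on the Col-0 arrays, a difference of -0.03 (SE 0.11, 95% interval -0.32 to 0.26, adjusted p = 0.935). FSD3 measured 11.08 and 11.14 on the 35S:∆13RAP2.12-labelled arrays and 11.26 and 10.90 on the Col-0 arrays. Here the Col-0 arrays enclosed the others, and the difference was 0.03 (SE 0.16, 95% interval -0.40 to 0.46, adjusted p = 0.951). Its sign depended on single arrays: it was -0.15 without Col-0 replicate 2 and -0.00019 without 35S:∆13RAP2.12 replicate 2.

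MSD1, the manganese dismutase of the mitochondrial matrix, was close to equal. It measured 11.38 and 11.35 on the 35S:∆13RAP2.12-labelled arrays and 11.45 and 11.40 on the Col-0 arrays, with a log2 difference of -0.06 (SE 0.11, 95% interval -0.36 to 0.23, adjusted p = 0.833). As a ratio this interval ran from 0.78 to 1.17.

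The catalases had smaller differences than CSD1 and CSD2. CAT1, known mostly from pollen, seeds and stress responses, measured 10.59 and 10.61 on the 35S:∆13RAP2.12-labelled arrays, against 10.22 and 10.26 on the Col-0 arrays. The groups stood apart with little spread inside them. The log2 difference was 0.36 (SE 0.11, 95% interval 0.07 to 0.65, adjusted p = 0.233), which is 1.28-fold.

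CAT2, the main catalase of green leaves and the one needed in photorespiration, measured 10.24 and 10.23 on the 35S:∆13RAP2.12-labelled arrays, against 9.88 and 10.07 on the Col-0 arrays. The first pair lay above both Col-0 arrays, which differed more between themselves. The log2 difference was 0.26 (SE 0.13, 95% interval -0.07 to 0.59, adjusted p = 0.412). CAT3, whose transcript is under clock control and is known to peak late in the day, measured 11.10 and 11.18 on the 35S:∆13RAP2.12-labelled arrays and 11.17 and 11.14 on the Col-0 arrays. These values overlapped, with a log2 difference of -0.02 (SE 0.11, 95% interval -0.32 to 0.28, adjusted p = 0.951). Its sign was positive, at 0.03, after a repeated quantile normalization and at 0.02 without 35S:∆13RAP2.12 replicate 1. CAT1 and CAT3 are neighbours on chromosome 1, with 0 protein-coding genes between them in the RefSeq gene table of TAIR10.1. No source used here says which probes tell the related catalase transcripts apart.

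Pairs of transcripts were also compared within each array, which removes any shift common to an array. Levels of different probe sets are not comparable in themselves, so only the change of such a difference between the lines is read. CSD1 minus CSD3 was 0.82 and 0.61 on the 35S:∆13RAP2.12-labelled arrays and -0.13 and -0.25 on the Col-0 arrays, a shift of 0.90 in log2. CSD1 minus FSD1 was 2.03 and 1.70 on the 35S:∆13RAP2.12-labelled arrays and 0.94 and 0.69 on the Col-0 arrays, a shift of 1.05. Both differences were larger on each 35S:∆13RAP2.12-labelled array than on either Col-0 array. MSD1 minus CSD1 was -0.69 and -0.68 on the 35S:∆13RAP2.12-labelled arrays and 0.10 and 0.10 on the Col-0 arrays, a shift of -0.79.

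CSD1 and CSD2 kept nearly the same distance, at -0.50 and -0.56 on the 35S:∆13RAP2.12-labelled arrays and -0.63 and -0.62 on the Col-0 arrays, a shift of 0.10. CAT1 minus CAT2 shifted by 0.10 and CAT3 minus CAT2 by -0.28. The size of both rested on the Col-0 arrays: CAT1 minus CAT2 shifted by 0.03 without Col-0 replicate 2 and by 0.17 without Col-0 replicate 1, and CAT3 minus CAT2 by -0.39 and -0.17. In all 6 pairs compared the groups did not overlap. Among single probe sets, 19.5% were higher and 29.1% lower on the 35S:∆13RAP2.12-labelled arrays without overlap. Every pair held CSD1 or CAT2, so the pairs are not independent. The two-sided exact permutation test gave p = 0.333 for each pair (0.333 after adjustment over the 6 pairs), the smallest value that 2 arrays against 2 allow. No pair can therefore pass a threshold of 0.05 in this design.

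**Figure D3:**
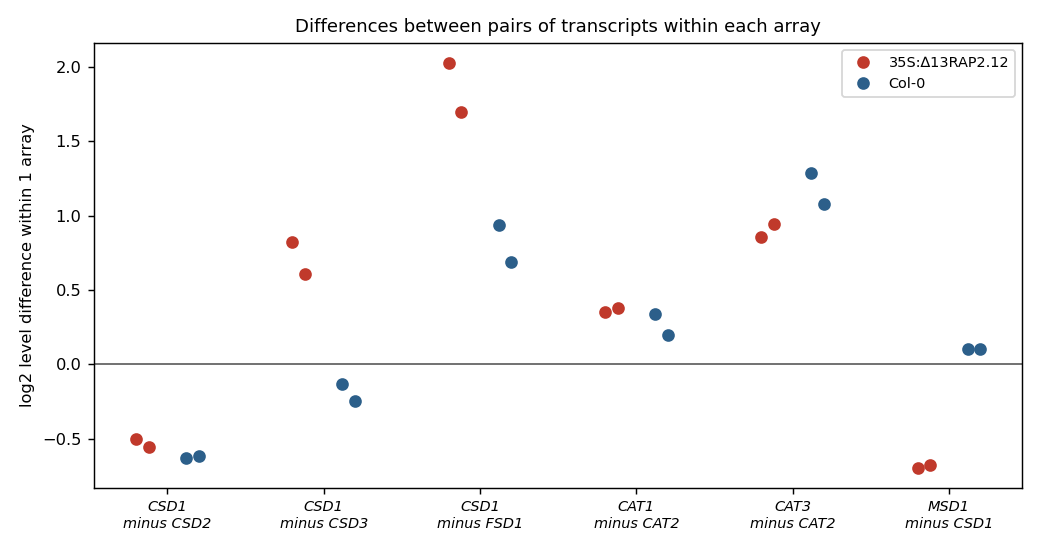
Log2 level of one transcript minus that of another within each array (vertical axis) for 6 pairs, with the 2 arrays labelled 35S:∆13RAP2.12 in red and the 2 Col-0 arrays in blue. The distance between red and blue is widest for CSD1 minus FSD1 (1.05) and CSD1 minus CSD3 (0.90), and narrow for CSD1 minus CSD2 (0.10).

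The copper chaperone of CSD1 and CSD2 rose. CCS1, which loads copper into these enzymes, measured 11.41 and 11.39 on the 35S:∆13RAP2.12-labelled arrays, against 10.46 and 10.28 on the Col-0 arrays. The log2 difference was 1.03 (SE 0.12, adjusted p = 0.0395), which is 2.04-fold. The call was lost with the replicate number as a block (adjusted p = 0.0641) and without any 1 of the 4 arrays (adjusted p = 0.138 to 0.198), while the difference stayed between 0.94 and 1.11. CCS1 was the only called gene, higher, among 22 genes of copper delivery and copper economy. None was called lower, where all probe sets gave 1.74% higher and 0.424% lower, and the list had a median difference of -0.11.

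The MIR398 genes, the source of the microRNA that targets CSD1, CSD2 and CCS1, did not pass. MIR398C measured 7.44 and 7.53 on the 35S:∆13RAP2.12-labelled arrays and 7.67 and 7.83 on the Col-0 arrays, a difference of -0.26 (SE 0.13, adjusted p = 0.414). MIR398B measured 4.85 and 4.81 on the 35S:∆13RAP2.12-labelled arrays and 5.19 and 4.91 on the Col-0 arrays, a difference of -0.22 (adjusted p = 0.547). This was -0.07 without Col-0 replicate 1 and -0.36 without Col-0 replicate 2. At both loci the 35S:∆13RAP2.12-labelled arrays were lower without overlap, as in 29.1% of all probe sets, and neither passed the test. MIR398A lay below the lower quartile of signal, at 2.35 and 2.62 on the 35S:∆13RAP2.12-labelled arrays and 2.18 and 2.51 on the Col-0 arrays, with a difference of 0.14 (adjusted p = 0.764) that was -0.03 without Col-0 replicate 1. The mature microRNA was not measured here.

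Further genes of copper economy were picked after their values were seen. MIR408, another microRNA gene of low copper, had a difference of -0.44 (adjusted p = 0.188), and the metal transporter YSL2 one of -0.62 (adjusted p = 0.112). The copper chaperone CCH had one of -0.42 (adjusted p = 0.248). The laccase LAC3 had one of 0.91 (adjusted p = 0.249), and the reductase FRO5, below the lower quartile of signal, one of -0.87 (adjusted p = 0.248). The relatives of LAC3 and FRO5 on the list did not share their values. FRO4 had a difference of 0.32 (adjusted p = 0.382), LAC12 one of 0.07 (adjusted p = 0.873) and LAC13 one of -0.10 (adjusted p = 0.732). Of all 22 copper genes, 8 had positive and 14 had negative differences, where 42.4% of all probe sets had positive ones. Another known miR398 target, COX5B-1, which encodes a subunit of cytochrome c oxidase, had a difference of -0.12 (adjusted p = 0.674). SPL7, the regulator of this response, had one of -0.06 (adjusted p = 0.906).

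**Figure D4:**
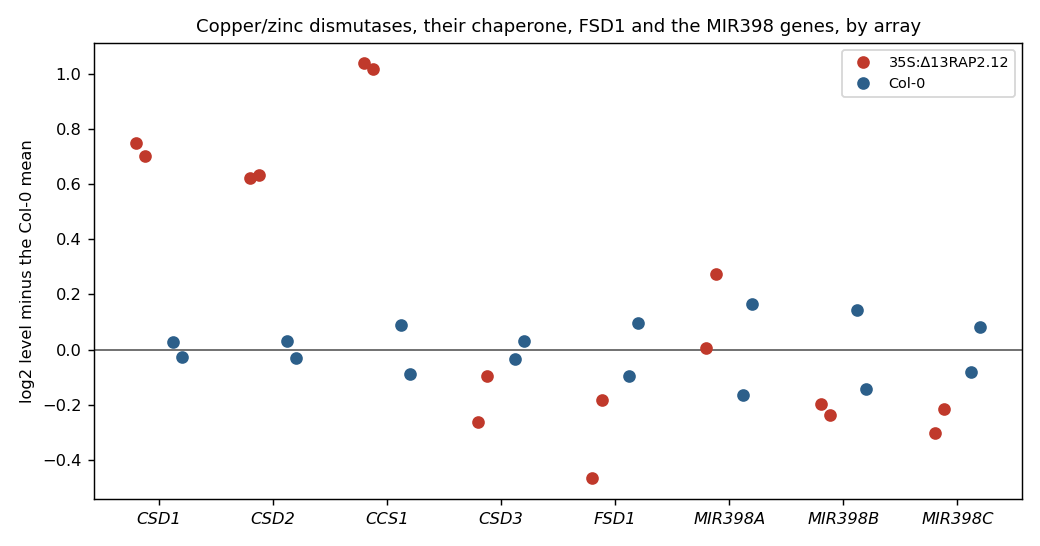
Log2 level of each array minus the Col-0 mean of the same gene (vertical axis), with arrays labelled 35S:∆13RAP2.12 in red and Col-0 arrays in blue. The red points of CSD1, CSD2 and CCS1 lie well above their Col-0 points, and those of CSD3, FSD1, MIR398B and MIR398C lie below theirs.

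Other enzymes that remove hydrogen peroxide were called about as often as probe sets in general (2.17%). In the ascorbate and glutathione cycle, 0 of 17 genes were called at an adjusted p below 0.05, with a median difference of 0.01 and 1 gene at an unadjusted p below 0.05. That gene was MDAR3, a monodehydroascorbate reductase, at 9.50 and 8.98 on the 35S:∆13RAP2.12-labelled arrays, against 5.65 and 7.28 on the Col-0 arrays. The Col-0 arrays of MDAR3 lay far apart, and its difference of 2.78 (SE 0.58) had an adjusted p of 0.120, or 0.00815 when the prior variance followed the level. Among 17 glutathione peroxidase-like enzymes and peroxiredoxins, 1 was higher and 0 lower, with a median of -0.05. The peroxiredoxin PRXIIC rose by 1.16 (SE 0.15, adjusted p = 0.0479) and measured 5.64 and 5.32 on the 35S:∆13RAP2.12-labelled arrays, against 4.31 and 4.34 on the Col-0 arrays, where both Col-0 values lay under the lower quartile of 4.82. Its call was lost without any 1 of the 4 arrays (adjusted p = 0.0715 to 0.249), with the replicate block (adjusted p = 0.0652), and with 3 other alternatives (adjusted p = 0.0534 to 0.0616).

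The peroxisomal and plastid partners of the catalases and iron dismutases had small differences. Of 12 genes of the photorespiratory peroxisome, which makes the hydrogen peroxide that CAT2 removes, 0 were called and 0 reached an unadjusted p below 0.05 in limma. Their differences ran from -0.13 to 0.14 with a median of -0.06, and the smallest p was that of LSD1, a regulator of cell death that binds catalases, at 0.14 (adjusted p = 0.677). Of 11 genes for proteins associated with the plastid RNA polymerase or with iron dismutase activation, which share that place with FSD2 and FSD3, 0 were called and 0 reached an unadjusted p below 0.05. Their differences ran from -0.13 to 0.14 with a median of 0.01, and PAP5 had the smallest p, at 0.13 (adjusted p = 0.648). In both lists the 95% interval of every gene lay within 2-fold, as did that of 82.6% of all probe sets. Over all probe sets 2.17% were called, and 7.85% were higher and 8.38% lower at an unadjusted p below 0.05 in limma. With so few called in general, the absence of calls in lists this short says little about them.

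Genes known to respond to reactive oxygen had higher values as a list. The list was chosen with earlier results of these data known, so its counts are not an independent test. Of 12 such marker genes, 4 were called higher and 0 lower, where 1.74% of all probe sets were called higher and 0.424% lower, and the median difference was 1.12. HSP17.6II, a small heat shock protein, rose by 3.91 (adjusted p = 0.0152), the transcription factor WRKY75 by 3.79 (adjusted p = 0.00539), the receptor-like kinase CRK13 by 2.26 (adjusted p = 0.0485) and the ferritin FER1, which stores iron, by 1.23 (adjusted p = 0.0429). WRKY75 measured 8.70 and 8.48 on the 35S:∆13RAP2.12-labelled arrays, against 4.59 and 5.02 on the Col-0 arrays. In 11 of the 12 marker genes the groups did not overlap and the 35S:∆13RAP2.12-labelled arrays were higher, as in 19.5% of all probe sets. With any 1 array left out, fewer of these genes were called, and fewer of all probe sets were called too. FER1 missed the threshold without any 1 of the 4 arrays, and HSP17.6II, WRKY75 and CRK13 missed it without either Col-0 array. In these fits the difference ran from 3.57 to 4.24 for HSP17.6II and from 3.57 to 4.01 for WRKY75. For CRK13 it ran from 1.84 to 2.69 and for FER1 from 1.06 to 1.39. CRK13 also missed it with repeated quantile normalization (adjusted p = 0.0506), robust variances (0.0552) and array weights (0.0599), and FER1 with the replicate block (0.0546). Many of these markers are also known to answer to pathogens, heat or low oxygen, and no reactive oxygen species were measured here.

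**Figure D5:**
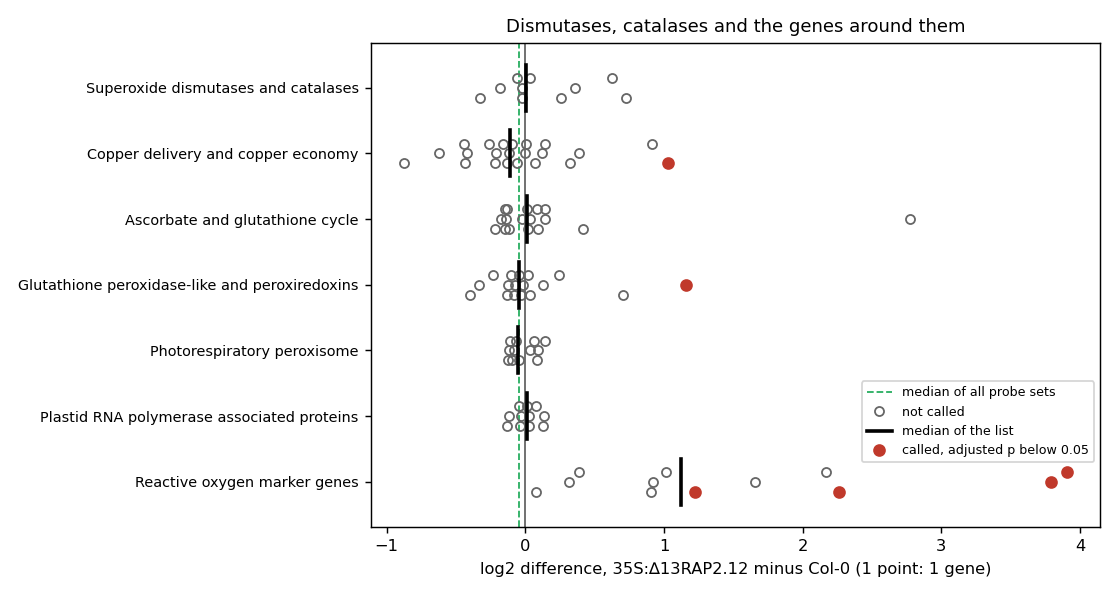
Log2 difference, 35S:∆13RAP2.12 minus Col-0 (horizontal axis), of each gene (1 point) in the 10 dismutases and catalases and in 6 lists of related genes; filled red points passed an adjusted p below 0.05, black bars are list medians and the dashed green line is the median of all probe sets (-0.04). The reactive oxygen markers have a median of 1.12, and the medians of the other 5 lists run from -0.11 to 0.01.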

How the data were processed

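The deposited values are log2 expression levels on Affymetrix Arabidopsis arrays made with RMA, per the submitters' processing notes, which name RMA only. The log2 scale was read from the range of the values. No source used here names the software, the probe set definition or the genome build. The series describes 3 replicates per group, and the 2 per group given were used; the others were not analysed here. All 4 columns were used and 0 left aside. Of 27826 loci, 27241 matched the reference gene table of TAIR10.1, which gave symbols and gene order only.

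Differences were fitted over all probe sets with limma 3.58.1 in R 4.3.3 (lmFit, eBayes, no covariates, no filter, residual degrees of freedom 2, prior 2.55) and adjusted by Benjamini-Hochberg; calls needed an adjusted p below 0.05. The fit was repeated with replicate numbers as a block, after quantile normalization or centring on array medians, without the dimmest 25% of probe sets, with a variance trend, robust variances or array weights, without each array, and at thresholds of 0.01 and 0.10. The fit was tested on simulated data. The number of arrays limits the precision. The 10 genes, the 6 lists of 91 related genes and the tests were chosen with earlier results of these data known. Named were all 10 genes, CCS1 and the MIR398 genes, and per list up to 4 called genes with the largest differences or the gene with the smallest p. Other genes of the 6 lists are marked in the text as picked after their values were seen. The organ markers LHCB1.1, PYK10 and AG were named by where they lay relative to the lower quartile of signal. Figures used matplotlib 3.10.9 in Python 3.11.15.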

Additional observations from a re-analysis of the deposited data

How the results depend on the processing

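The count of dismutases and catalases called was 0 in the fit as described, with the replicate block, a repeated quantile normalization, median centring, robust variances, array weights, a threshold of 0.01 and each array left out (0 to 0). It was 2 with the low-signal filter, 2 at an adjusted p below 0.10 (CSD1 and CSD2, where 4.32% of all probe sets passed) and 3 with a variance trend. The calls over the whole table, 603 as described, were 1759 with the trend, 160 at 0.01, 1203 at 0.10, and 0 to 315 with 1 array left out. The 6 related genes called became 10 with the trend, 1 at 0.01, 4 with the replicate block, repeated quantile normalization, robust variances or array weights, and 0 to 3 with 1 array left out. The cause of the effects of the trend and the filter was not tested. Signs turned for FSD3 (-0.15 to 0.21 with 1 array left out), CAT3 (0.027 after repeated quantile normalization, -0.062 to 0.019 with 1 array left out) and MIR398A (-0.025 to 0.30), all far from the threshold; no other of the 10 genes changed sign. The 6 within-array shifts kept their sign and moved by less than the larger of the 2 group SDs after a repeated quantile normalization. Median centring cannot change a difference within an array, so it says nothing on their stability. With 1 array left out, CSD1 minus CSD3 shifted by 0.80 to 1.01, CAT1 minus CAT2 by 0.026 to 0.17 and CAT3 minus CAT2 by -0.39 to -0.17. Among uncalled transcripts, CSD3 ran from -0.26 to -0.096, FSD1 from -0.47 to -0.18, MSD1 from -0.091 to -0.035, CAT2 from 0.17 to 0.35 and MIR398B from -0.36 to -0.074 in the same fits. The numbers 1 and 2 shared by the titles are not said to mark a shared batch, and same-numbered arrays deviated from their group means with r = 0.03 over probe sets. With the replicate block 515 probe sets were called, the 10 genes gave 0, and CCS1, PRXIIC and FER1 missed the threshold (FER1 at an adjusted p of 0.0546). Without raw intensities, how far each signal stood above background was not analysed.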
